A study of Mus musculus and Rattus norvegicus with 28 samples.

Results

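The genes of fatty acid uptake and of the lipid droplet were followed in left ventricular cardiomyocytes across birth in the mouse, and in cultured neonatal rat cardiomyocytes given a histone deacetylase inhibitor. The set held 10 genes (Cd36, Fabp3, Fabp4, Fabp5, Lpl, Slc27a1, Plin2, Plin5, Pnpla2 and Angptl4), taken by gene name out of 55450 genes in the mouse transcript files and 32623 in the rat files. All 10 were found in the mouse and 9 in the rat, where Cd36 was not analysed here. Each passed the expression filter wherever it was found.

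Mouse cells came from C57BL/6 left ventricles of both sexes at embryonic day 18.5 (E18.5) and postnatal days 1, 3 and 7 (P1, P3 and P7), with 2 RNA-seq and 2 ATAC-seq libraries per time point. ATAC-seq marks open chromatin through the cuts that a transposase makes in it. Rat cells came from P1 Sprague Dawley ventricles and were plated, then given 100 nM trichostatin A (TSA), an inhibitor of histone deacetylases, or its solvent DMSO for 48 h, with 3 RNA-seq libraries each. In both species the cells were released with trypsin and collagenase and preplated, a step in which the fibroblasts and other cells that attach quickly are left behind on the dish. No group carried a genetic change. Levels are FPKM, fragments assigned to a gene scaled to transcript length and to the depth of the library and so comparable between genes. Comparisons between libraries depend on how the libraries are scaled, and the split of higher and lower calls among all genes is given below under 3 scalings.

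The heart draws most of its energy after birth from fatty acids. Lipoprotein lipase releases them from triglyceride-rich particles at the vessel wall, the scavenger receptor CD36 and the transport protein FATP1 bring them into the cell, and small fatty acid binding proteins (FABPs) carry them in the cytosol. What is not burned is stored in lipid droplets under a coat of perilipins and is freed again by the lipase ATGL, the product of Pnpla2.

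The label of the cells was checked against marker genes before the results were read. The summed level of 16 cardiomyocyte markers was 33247 and 42816 FPKM in the E18.5 libraries, 16755 and 26463 in those of P1, 11126 and 9177 in those of P3, and 2954 and 1310 in those of P7. All 16 were present in every library, and all 16 were called lower at P7 than at E18.5. The sum of 12 fibroblast markers went the other way, from 487 and 489 FPKM at E18.5 to 3042 and 3773 at P7, with 11 of the 12 called higher. The sum of 12 endothelial markers stayed between 337 and 779 FPKM in the 8 libraries, with 2 called higher and 2 lower at P7. The sum of 10 smooth muscle and pericyte markers was 431 and 560 FPKM at E18.5 and 1671 and 1879 at P7. Of these 10, 5 were called higher and 3 lower at P7. The 5 adipocyte markers in the files summed to under 1 FPKM in each library. Red cell transcripts were high only at E18.5, where 7 erythroid markers summed to 29046 and 35395 FPKM, against 4.7 to 41.0 FPKM in the 6 postnatal libraries. In bulk RNA, fewer cells of a type and less RNA per cell cannot be told apart, and what these shifts contribute to the values below was not tested.

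Promoter sequences are shown for genes with different peak patterns. RefSeq promoter windows (GRCm38.p6, the same assembly as mm10) matched 6 of the 10 genes, at 9 start sites: Cd36, Fabp3, Slc27a1, Plin2, Plin5 and Pnpla2. The genes with no entry were Fabp4, Fabp5, Lpl and Angptl4. The stretches shown are the bases just before a start site that no annotated exon covers, written 5′ to 3′ along the gene, with capitals marking matches to AGGTCA, the hexamer that nuclear receptors recognise, or to CCAAT. Pnpla2 is shown as a promoter with peaks in E18.5, P3 and P7 libraries (chr7:141454938-141455187, plus strand), Cd36 as one in which no library had a peak (chr5:17835897-17836146, minus strand), and an internal start of Slc27a1 as one with peaks only after birth (chr8:71570566-71570593, plus strand).
Pnpla2: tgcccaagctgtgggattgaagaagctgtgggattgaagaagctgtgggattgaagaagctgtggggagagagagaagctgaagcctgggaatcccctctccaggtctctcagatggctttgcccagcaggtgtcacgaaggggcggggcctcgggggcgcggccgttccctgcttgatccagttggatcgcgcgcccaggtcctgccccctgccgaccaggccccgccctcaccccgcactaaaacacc
Cd36: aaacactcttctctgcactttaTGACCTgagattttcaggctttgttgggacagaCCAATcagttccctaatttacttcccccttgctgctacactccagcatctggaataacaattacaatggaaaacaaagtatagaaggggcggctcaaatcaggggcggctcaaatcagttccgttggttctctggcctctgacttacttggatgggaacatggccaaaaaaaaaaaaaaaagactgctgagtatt
Slc27a1: gtacacgctgggggcggggccaggcttg

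The 2 longer promoters differed in composition. Over the whole RefSeq window, G and C made up 65.3% of the bases of Pnpla2 and 43% of those of Cd36, against a mean of 53.8% over 32851 promoter windows. AGGTCA was found on either strand in 4 of the 9 windows, from 3 genes (Cd36, Plin2 and Plin5), against 16.3% of all windows. CCAAT was found in 5 of the 9, from 4 genes, against 37.4% of all windows. The AP-1 motif TGANTCA was found in 1 window, of Plin5, against 7.81%. The direct repeat AGGNCANAGGNCA bound by PPAR and its partner RXR, which can contain AGGTCA, was found in no window of the set and in 0.381% of all windows. TATAAA and the MEF2 consensus were found in none of the 9, against 13.6% and 3.19% of all windows.

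Of the fatty acid binding protein genes, Fabp3 and Fabp4 were called lower at every postnatal time point against E18.5, and Fabp5 was called higher at P7. Fabp3 (ENSMUSG00000028773.8, chr4:130308595-130315463, plus strand) encodes the heart form of the protein. It stood at 1217 and 1474 FPKM before birth, 300.0 and 339 on P1, 223 and 219 on P3, and 83.8 and 33.7 on P7. No time points overlapped, and the order was strictly downward. The log2 fold change from E18.5, on the log2(FPKM + 1) scale, was -2.07 ± 0.35 (SE, limma, adjusted p = 0.00263) at P1, -2.60 ± 0.35 (adjusted p = 0.000642) at P3 and -4.63 ± 0.35 (adjusted p = 3.16e-05) at P7, a level 24.7-fold lower. Leaving out 1 P7 library moved the last value to -5.27 (without replicate 1) or -3.98 (without replicate 2). In the same P7 comparison the median log2 fold change of the 16 cardiomyocyte markers was -4.24.

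Fabp4 (ENSMUSG00000062515.3, chr3:10204088-10208576, minus strand) encodes the form known from adipocytes, capillary endothelium and macrophages. Its levels were 267 and 179 FPKM in the E18.5 libraries, 18.6 and 25.9 in those of P1, 27.3 and 39.7 in those of P3, and 72.3 and 94.6 in those of P7. The gene was highest before birth, lowest at P1 and P3, and intermediate at P7, and P1 and P3 came within a few FPKM of each other without overlapping. It fell by 3.26 ± 0.27 on the log2 scale by P1 (adjusted p = 0.000125) and was then higher at P7 than at P1 by 1.87 ± 0.27 (adjusted p = 0.00268), still 1.39 ± 0.27 below E18.5 (log2 fold change -1.39, adjusted p = 0.00269). Endothelial markers, taken as a sum, were 612 and 337 FPKM before birth, 464 and 423 on P1, 682 and 779 on P3, and 598 and 503 on P7, and their median log2 fold change was -0.49 from E18.5 to P1 and 0.47 from P1 to P7. The macrophage markers summed to 61.5 and 54.0 FPKM before birth, 118 and 156 on P1, 191 and 159 on P3, and 141 and 118 on P7. Lyz2 made up most of each postnatal macrophage sum. Its level was 9.45 and 10.3 FPKM before birth, 83.3 and 112 on P1, 135 and 113 on P3, and 94.8 and 75.7 on P7. Over 9 tested macrophage markers the median log2 fold change was -0.04 from E18.5 to P1, -0.05 to P3 and -0.18 from P1 to P7. Single markers differed from their sums. Of the 12 endothelial markers, Emcn was called higher and Kdr, Vwf and Cldn5 lower from E18.5 to P1, with 8 not called. From P1 to P7 Cldn5 was called higher and 11 were not called. Of 9 tested macrophage markers, Lyz2 was called higher and Cd14 lower from E18.5 to P1, with 7 not called. From P1 to P7 Cd14 was called higher and 8 were not called. The part of these cell types in the Fabp4 values was not tested.

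Fabp5 (ENSMUSG00000027533.10, chr3:10012548-10016607, plus strand), the epidermal form, rose with age. It was at 83.8 and 84.2 FPKM before birth, 102 and 118 on P1, 156 and 153 on P3, and 220 and 278 on P7, with no overlap between any time points. The change from E18.5 was 0.38 ± 0.14 at P1 (adjusted p = 0.0632) and 0.87 ± 0.14 at P3 (adjusted p = 0.00169, under the log2 size of 1 that a call needed), and it was called at P7 with 1.55 ± 0.14 (adjusted p = 7.1e-05). From P1 to P7 the change was 1.16 ± 0.14 (adjusted p = 0.00153), and without P7 replicate 2 it was 0.99, just under the size needed for a call.

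In these bulk libraries the make-up of the FABP pool, the summed FPKM of the 3 genes, therefore changed with age. What the shifts in cell type markers contribute to it was not tested. Of the summed FPKM of the 3 genes, Fabp5 held 5.34% and 4.85% in the E18.5 libraries, 24.2% and 24.5% in those of P1, 38.3% and 37.2% in those of P3, and 58.5% and 68.5% in those of P7. Fabp3 went from 77.6% and 84.9% to 22.3% and 8.28% between E18.5 and P7. The pool itself was 1568 and 1737 FPKM at E18.5 and between 376 and 484 FPKM in the 6 postnatal libraries, so that its size changed at birth while its composition went on changing to P7. Copies and overlaps in the annotation bear on these genes. Fabp3 has an annotated copy, Fabp3-ps1, aligned over 402 bases at 99.25% identity and listed at up to 33.0 FPKM, and it overlaps Zcchc17 and Gm10570 on the opposite strand in a library kit that does not mark strand. Fabp5 has 5 annotated copies of up to 98.29% identity, whose highest levels added up to 1.45 FPKM. How reads were divided among such copies was not tested.

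**Figure D1:**
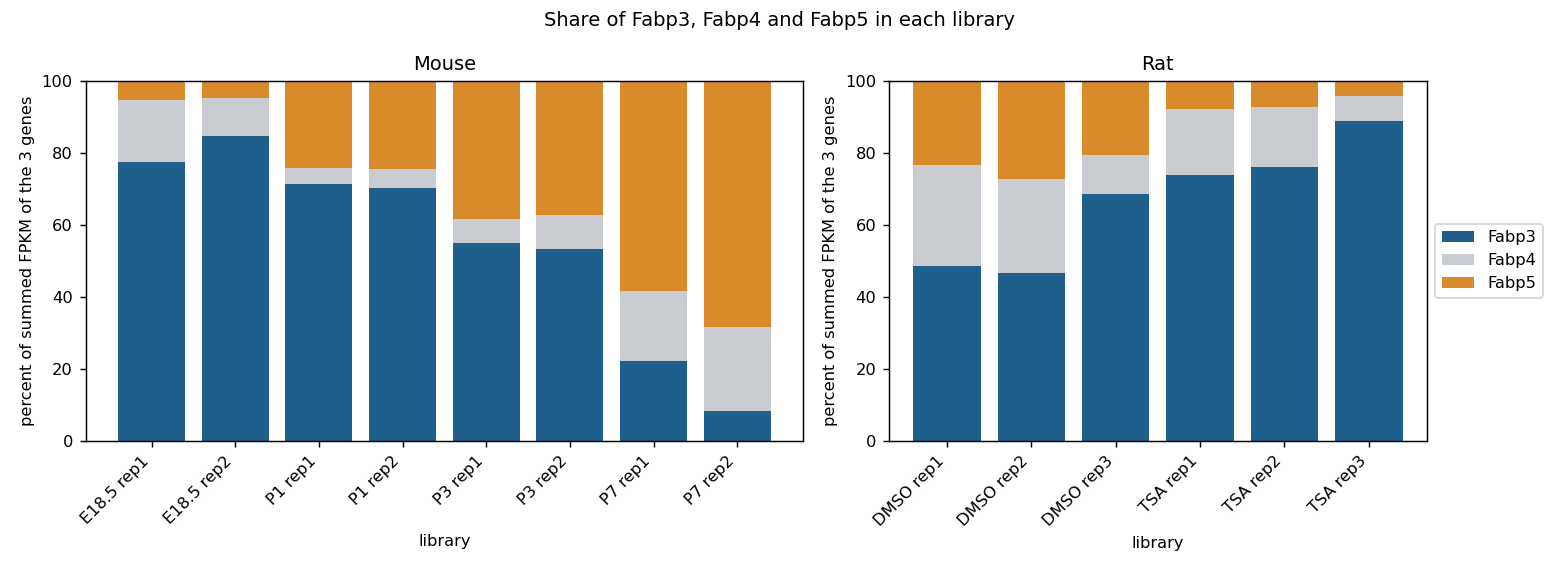
Stacked bars give the percent of the summed FPKM of Fabp3, Fabp4 and Fabp5 that each gene held, one bar per library, for the mouse time points on the left and the rat treatments on the right. In the mouse Fabp5 grew from 4.85% at its lowest to 68.5% at its highest library, and in the rat it lay between 20.6% and 27.3% with DMSO and between 4.06% and 7.73% with TSA.

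The entry steps at the membrane and the vessel wall went lower or did not pass the test. Cd36 (ENSMUSG00000002944.15, chr5:17781690-17888801, minus strand), the fatty acid translocase, was at 122 and 88.9 FPKM before birth, 35.0 and 33.5 on P1, 39.4 and 40.2 on P3, and 28.8 and 24.6 on P7. Each postnatal library was below both E18.5 libraries. Its log2 fold change from E18.5 was -1.58 ± 0.17 at P1 (adjusted p = 0.000335), -1.37 ± 0.17 at P3 (adjusted p = 0.000408) and -1.93 ± 0.17 at P7 (adjusted p = 5.01e-05), while that from P1 to P7, -0.35 ± 0.17, did not pass (adjusted p = 0.192). Its leading transcript gave 58.9% to 76.2% of its level in every library.

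Lpl (ENSMUSG00000015568.16, chr8:68880491-68907448, plus strand), lipoprotein lipase, was at 161 and 194 FPKM in the E18.5 libraries, 163 and 322 in those of P1, 167 and 186 in those of P3, and 88.0 and 80.9 in those of P7. The first 3 time points overlapped, P1 replicate 2 was the highest library, and P7 lay below all others. Lpl was called lower at P7 than at E18.5 (-1.06 ± 0.28, adjusted p = 0.0122) and than at P1 (-1.43 ± 0.28, adjusted p = 0.00956). In the same P7 comparison with E18.5 the median log2 fold change of the fibroblast markers was 2.65. The call against E18.5 was lost on the TPM scale, where the change was -0.80, without an expression filter (adjusted p = 0.0535), without E18.5 replicate 2 (-0.92, adjusted p = 0.081) and without P7 replicate 2 (-0.996, adjusted p = 0.0565). The call against P1 was lost without an expression filter (adjusted p = 0.0621), without P1 replicate 2 (-0.94) and without P7 replicate 2 (adjusted p = 0.063).

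Slc27a1 (ENSMUSG00000031808.7, chr8:71568882-71587302, plus strand), which encodes FATP1, lay between 10.9 and 21.9 FPKM in all 8 libraries and was called in none of the 4 mouse comparisons. Its levels were 14.1 and 15.9 FPKM before birth, 19.4 and 15.8 on P1, 18.6 and 21.9 on P3, and 14.0 and 10.9 on P7. The isoform estimates of this gene differed between libraries of the same time point, and its leading transcript was listed at 0 in 3 of the 8 libraries, so that only the gene level is used.

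Angptl4 (ENSMUSG00000002289.16, chr17:33773750-33781830, minus strand) encodes a secreted inhibitor of lipoprotein lipase and is a known target of PPAR receptors, glucocorticoids and hypoxia. It stood at 11.9 and 5.10 FPKM in the E18.5 libraries, 13.1 and 7.26 in those of P1, 6.29 and 20.4 in those of P3, and 75.1 and 97.3 in those of P7. The first 3 time points overlapped throughout and both P7 libraries were well above all others. The log2 fold change was 3.29 ± 0.53 against E18.5 (9.75-fold, adjusted p = 0.00114) and 3.00 ± 0.53 against P1 (adjusted p = 0.00649). The lipase and its inhibitor thus changed in opposite directions at P7, when the lipase was 2.08-fold below its E18.5 level.

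**Figure D2:**
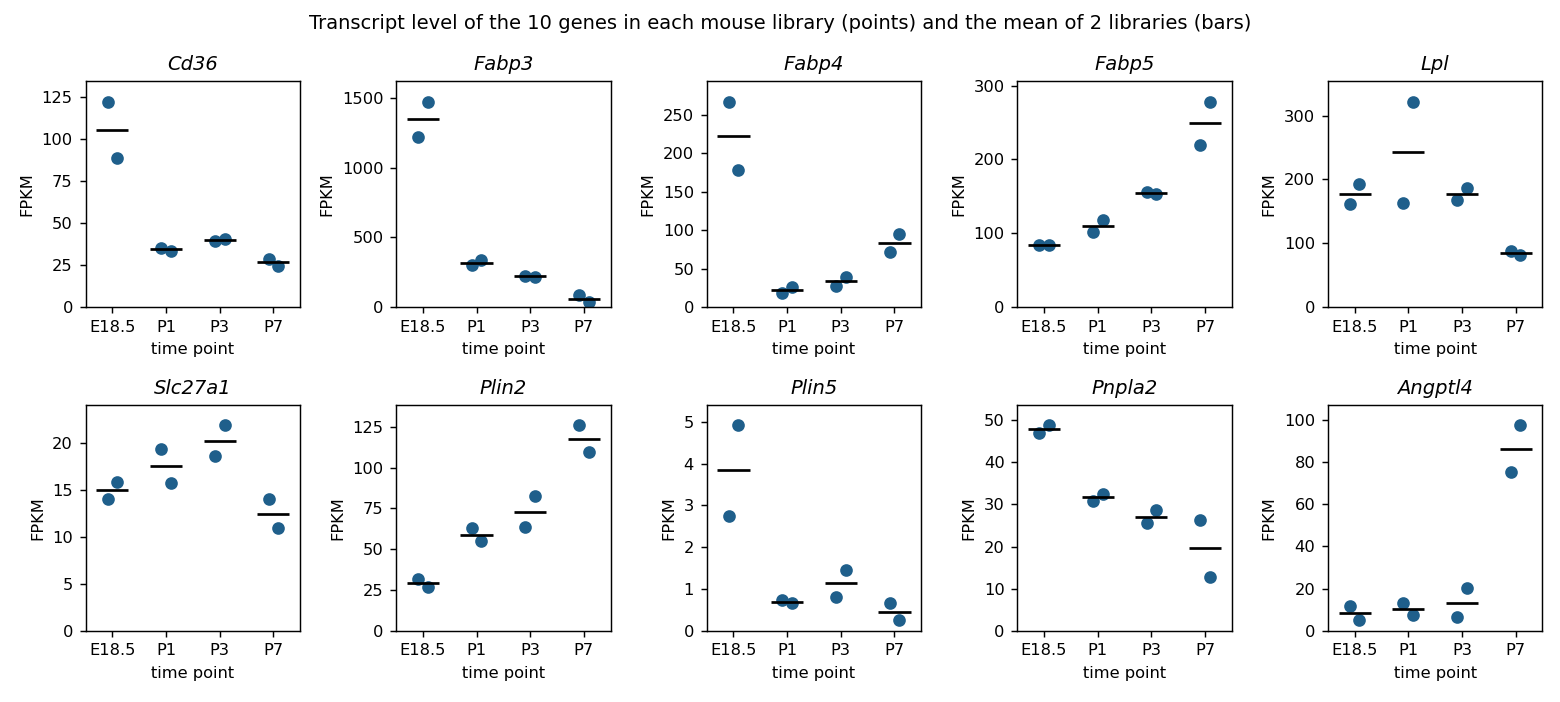
Each panel plots the FPKM of 1 gene on a linear axis from 0 against the time point, with a point per library and a bar at the mean of the 2 libraries. Cd36, Fabp3, Fabp4 and Plin5 drop between E18.5 and P1, Fabp5 and Plin2 climb from E18.5 to P7, and Angptl4 is above 75 FPKM only at P7.

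Among the droplet genes, the general coat protein rose while the oxidative one and the lipase fell. Plin2 (ENSMUSG00000028494.12, chr4:86648386-86670060, minus strand), the perilipin found on droplets in most tissues, was at 31.6 and 26.9 FPKM before birth, 62.8 and 54.8 on P1, 63.6 and 82.7 on P3, and 126 and 109 on P7. Time points did not overlap, with P1 and P3 nearly touching. Its change from E18.5 was 0.98 ± 0.17 at P1 (adjusted p = 0.00263, just under the size needed for a call), 1.29 ± 0.17 at P3 (adjusted p = 0.00054) and 1.97 ± 0.17 at P7 (3.93-fold, adjusted p = 4.6e-05). The fibroblast markers had a median log2 fold change of 1.53, 1.90 and 2.65 in the P1, P3 and P7 comparisons. They moved in the same direction as Plin2, Fabp5 and, at P7, Angptl4. The cardiomyocyte markers, with -0.82, -1.83 and -4.24, moved in that of the genes that fell. For the smooth muscle and pericyte markers the medians were -0.20, 0.64 and 0.85.

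Plin5 (ENSMUSG00000011305.11, chr17:56111601-56117596, minus strand), the perilipin of oxidative muscle that tethers droplets to mitochondria, was the lowest of the 10 genes in every library. It was at 2.76 and 4.91 FPKM in the E18.5 libraries, 0.739 and 0.657 in those of P1, 0.819 and 1.44 in those of P3, and 0.664 and 0.253 in those of P7, with all postnatal libraries below both E18.5 libraries and with P7 overlapping P1. The log2 fold change from E18.5 was -1.47 ± 0.26 at P1 (adjusted p = 0.00351), -1.16 ± 0.26 at P3 (adjusted p = 0.00765) and -1.71 ± 0.26 at P7 (adjusted p = 0.000931). At such levels the added 1 FPKM makes these values understate the change.

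Pnpla2 (ENSMUSG00000025509.15, chr7:141455198-141460743, plus strand) encodes adipose triglyceride lipase, ATGL, which takes the fatty acid off stored triglyceride at the start of lipolysis. Its levels were 46.9 and 48.8 FPKM before birth, 30.8 and 32.6 on P1, 25.6 and 28.6 on P3, and 26.4 and 12.7 on P7. P3 and P7 overlapped and every postnatal library was below E18.5. The change was called at P7 (-1.33 ± 0.28, adjusted p = 0.004) and lost its call without P7 replicate 2, where it was -0.84. The ratio of Plin2 to Pnpla2 FPKM was 0.673 and 0.552 in the E18.5 libraries, 2.04 and 1.68 in those of P1, 2.49 and 2.89 in those of P3, and 4.78 and 8.61 in those of P7, and no time points overlapped.

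In counts, 4 of the 10 genes were called at P1 against E18.5, all lower, where 16.2% of the 13979 tested genes were called (6.06% lower, 10.1% higher). At P3 there were 5, with 4 lower and 1 higher, against 21.9% of all genes (8.88% lower, 13.0% higher). At P7 there were 9, with 6 lower and 3 higher, against 27.7% (12.3% lower, 15.4% higher), and Slc27a1 was the gene not called. These 3 comparisons share the E18.5 libraries. From P1 to P7 there were 5, with 3 higher (Fabp4, Fabp5, Angptl4) and 2 lower (Fabp3, Lpl), against 8.91% (3.45% higher, 5.46% lower). Over the 10 genes the median log2 fold change was -0.18, -0.40 and -1.20 in the P1, P3 and P7 comparisons with E18.5, beside 0.15, 0.16 and 0.14 for all tested genes. The balance of higher and lower calls among all genes depended on the scaling: at P7, 55.7% of calls were higher in FPKM, 65.7% in TPM and 45.5% after median-of-ratios scaling. At P1 these shares were 62.5%, 74.3% and 45.8%, and at P3 59.4%, 71.9% and 45.7%. No called change of the 10 genes turned its direction under either scaling.

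**Figure D3:**
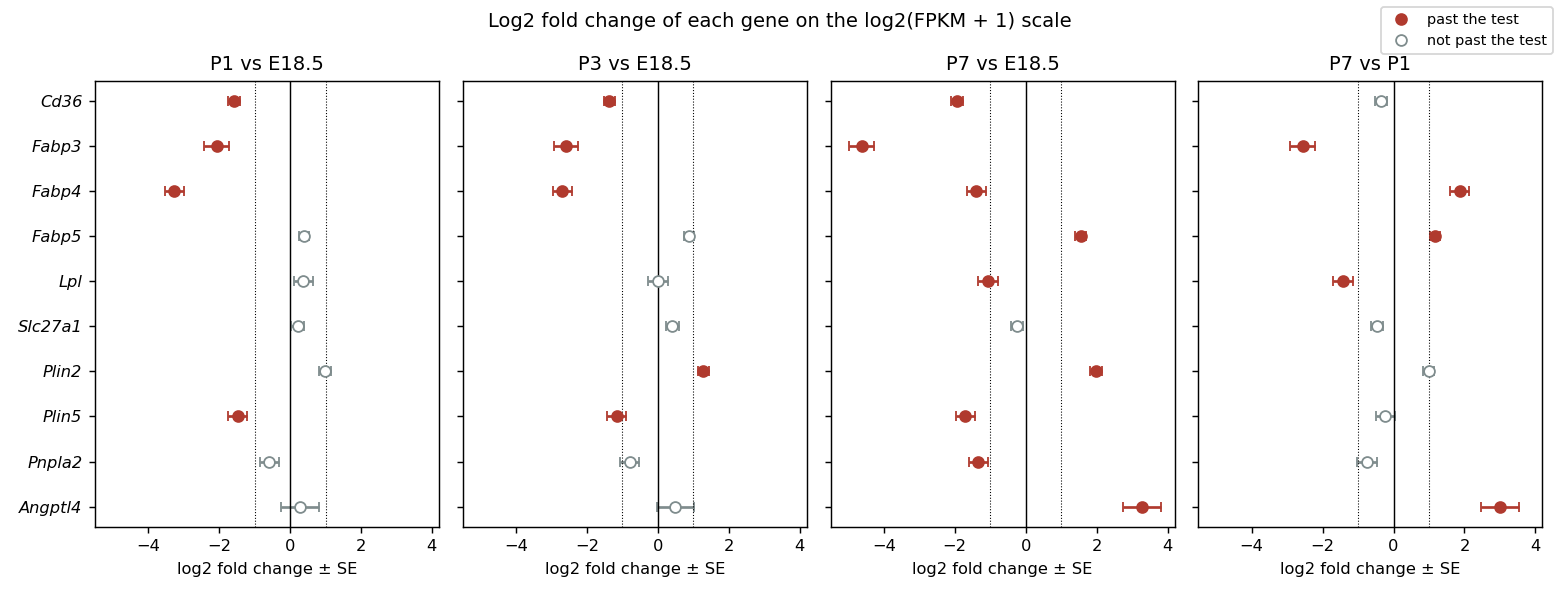
Points give the log2 fold change of each gene on the log2(FPKM + 1) scale in the 4 mouse comparisons, with bars of 1 SE, and filled red points are those past the test (adjusted p under 0.05 and a log2 size above 1, dotted lines). Fabp3 at P7 (-4.63) and Angptl4 at P7 (3.29) lie farthest from 0 among the comparisons with E18.5.

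The neighbouring genes of the pathway were counted in 4 further lists. Among 9 tested genes of fatty acid entry and activation, 3 were called higher and 3 lower at P7 against E18.5. Acsl1, the main acyl-CoA synthetase of heart, went from 93.6 ± 0.023 to 8.28 ± 4.9 FPKM (SD, n = 2 each; log2 fold change -3.46, limma, adjusted p = 7.98e-05), and Acsl3 and Got2, whose product also acts as a fatty acid binding protein of the plasma membrane, were lower too. Acsl5 went from 10.5 ± 3.3 to 33.4 ± 0.66 FPKM (log2 fold change 1.60, adjusted p = 0.000325), with Acsl4 and Slc27a3 also higher. Among 9 tested genes of lipase handling and lipoprotein receptors, the lipoprotein receptor gene Lrp1 was called higher (log2 fold change 3.56, adjusted p = 0.000153) and Gpihbp1, whose product holds lipoprotein lipase on the capillary wall, lower (-1.61, adjusted p = 0.00194).

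Among 14 tested genes of the droplet coat and its assembly, 3 were called in each direction at P7. Soat1, which esterifies cholesterol (log2 fold change 2.17), Agpat2 (1.21) and Hilpda, whose product inhibits ATGL (1.66), were higher. Dgat2, which makes triglyceride (-1.63), Fitm1 (-3.38) and Cidea (-1.45) were lower. Of 6 tested lipolysis genes, G0s2, which encodes another ATGL inhibitor (1.00), and Lipa, the lysosomal acid lipase (1.98), were higher and Mgll (-1.65) lower. The list medians were 0.50 for entry and activation, -0.02 for lipase handling, -0.09 for the droplet coat and 0.61 for lipolysis, beside 0.14 for all tested genes. From P1 to P7, Hilpda rose from 8.69 ± 0.63 to 64.3 ± 26 FPKM (log2 fold change 2.70, adjusted p = 0.00229) in the same comparison as Angptl4, and Gpihbp1 rose from 2.40 ± 1.1 to 7.96 ± 2.7 FPKM (1.40, adjusted p = 0.0125) in the same comparison as Fabp4. At P1 against E18.5 each list held as many genes called higher as lower, 2 each for entry and for lipase handling and 1 each for the droplet coat and for lipolysis.

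The genes whose profile over the 8 mouse libraries was most like each member's were taken as a description, by Pearson's r of log2(FPKM + 1) among 8931 genes. For Fabp3 they were Mcrip2, Ldhb and Myzap (r of 0.995 to 0.996). For Fabp4 they were Rgcc, Sparcl1 and Wsb1 (0.987 to 0.988), for Cd36 Zfp655, Mylip and Wdr82 (0.984 to 0.996), and for Fabp5 Cybc1, Arfgap3 and Cthrc1 (0.988 to 0.993). For Plin2 they were Ifnar2, Dram1 and Pdia5 (0.986 to 0.988), and for Angptl4 Impdh1, Nfkb1 and Tnfaip3 (0.965 to 0.975). Plin5 was nearest to Bpgm, Klf2 and Gm21926 (0.982 to 0.988), Pnpla2 to Hsdl1, Fam102a and Ndufaf7 (0.972 to 0.975), Lpl to 9330158H04Rik, Mtmr1 and Ank3 (0.973 to 0.986), and Slc27a1, which varied least, to Dek, Smg9 and Mrpl35 (0.929 to 0.930). All points share the libraries, so these values carry no test.

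Open chromatin at the promoters was read from the 8 deposited peak lists, counting a gene where a peak reached within 2.5 kb of one of its transcript starts. The lists differed in length, with 13149 and 14910 peaks before birth, 29281 and 19753 on P1, 95257 and 52040 on P3, and 49113 and 35898 on P7. A promoter peak was found for 4 and 2 of the 10 genes in the E18.5 libraries, 7 and 3 in the P1 libraries, 8 and 7 in the P3 libraries and 8 and 9 in the P7 libraries. The shares of all 13979 tested genes were 67.1% and 62.4% before birth, 69.2% and 43% on P1, 91.7% and 87.7% on P3, and 86.5% and 85.5% on P7. With only the 13149 highest peaks of every library, the genes with a promoter peak were 4 and 2, 3 and 3, 1 and 3, and 3 and 4, against 67.1% and 58.8%, 48.8% and 35.5%, 40.8% and 52.7%, and 48.8% and 64% of all tested genes.

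Fabp5 was the gene with a promoter peak in all 8 libraries, at chr3:10012133-10013476, around its start. Among the 13149 highest peaks of each library it was listed in 6 of 8. Peak summits nearest its start lay within 167 bp of it in every library, and the fold enrichment of its strongest peak ran from 4.22 in P1 replicate 2 to 8.90 in E18.5 replicate 2. The peak was thus listed at E18.5, when the transcript was at its lowest. Plin2 had peaks at its main start (chr4:86669187-86670220) in 7 of 8 libraries, all but E18.5 replicate 2, and Pnpla2 at its start (chr7:141454949-141456138) in 7 of 8, all but P1 replicate 2. In the Pnpla2 stretch printed above, between 53.6% and 95.6% of the bases lay inside a peak in the 2 E18.5, 2 P3 and 2 P7 libraries. The transcript of Pnpla2 was lower at P7 than at E18.5 while its promoter peak was listed at both.

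Lpl, Slc27a1 and Fabp3 had peaks after birth and none at E18.5. The Lpl start region (chr8:68880298-68881934) had a peak in both libraries of P1, P3 and P7. The Slc27a1 region lay at internal starts (chr8:71569966-71570853), in both libraries of P3 and P7 and in P1 replicate 1, and the 28 bases printed above were inside a peak in all 5. It held the highest enrichment of the set, 9.54-fold in P3 replicate 2. Fabp3 had peaks around its start in both libraries of P3 and P7, of 2.86-fold to 4.28-fold enrichment. A further Fabp3 region, with summits -1729 to -1716 bp from the start, was listed in P1 replicate 1 (5.07-fold) and P7 replicate 2 (3.59-fold). These peaks were found in the longer lists: among the 13149 highest peaks of each library, none was near a Fabp3 start.

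Counted as gained where both libraries of a time point had a peak and neither E18.5 library did, 1 gene was gained at P1 (Lpl) and 3 at P3 and at P7 (Fabp3, Lpl and Slc27a1), against 1.37%, 15.6% and 12.1% of all tested genes. None was lost, against 3.81%, 0.0715% and 0.0286%. With lists of equal length the gained genes were 0, 0 and 1 (Slc27a1), so that most of the gains were seen only with the longer lists. The share of all tested genes gained with lists of equal length was not taken. Angptl4 had 3 regions near its starts, in 6, 4 and 5 libraries. The one with summits -1854 to -1797 bp from the start reached 7.54-fold in P3 replicate 2 and was absent from both E18.5 libraries, while a peak of 4.11-fold near an internal start was listed in E18.5 replicate 1. Fabp4 had peaks only inside the gene, in P3 replicate 1 and P7 replicate 1, and Cd36 and Plin5 only in P7 replicate 2, of 3.61-fold and 3.01-fold. The Cd36 stretch printed above lay in no peak, and the P7 peak was at another start, chr5:17849776-17849904.

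**Figure D4:**
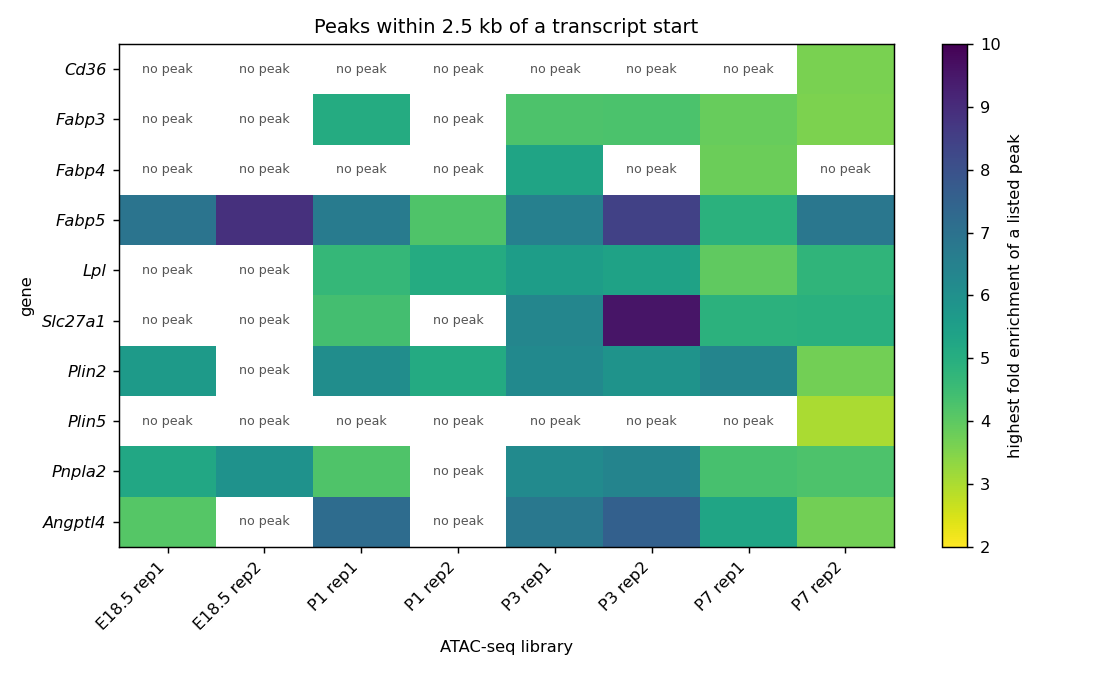
Rows are the 10 genes and columns the 8 ATAC-seq libraries; the colour gives the highest fold enrichment of a listed peak within 2.5 kb of a transcript start, and white cells had no listed peak. Fabp5 is filled in all 8 columns, while Cd36 and Plin5 are filled in 1.

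In the rat cells, Fabp5 was lower with TSA and no other member passed the test. Fabp5 was at 179, 215 and 110 FPKM in the DMSO libraries and at 61.8, 53.6 and 47.6 with TSA. The groups did not overlap, and the log2 fold change was -1.57 ± 0.25 (2.96-fold lower, limma, adjusted p = 0.0238). This was 1 of the 9 genes, against 2.13% of 13625 tested genes (0.316% lower, 1.81% higher). With 3 libraries per group the call was lost when any library but DMSO replicate 3 was left out, though the change stayed between -1.84 and -1.36. The summed level of macrophage markers was 1014, 1033 and 491 FPKM with DMSO and 543, 462 and 407 with TSA, with groups that overlapped. Lyz2 made up most of it, at 777, 779 and 390 FPKM with DMSO and 399, 340 and 304 with TSA. C1qb was higher with TSA, at 5.16, 6.62 and 2.79 against 10.8, 9.04 and 10.9 FPKM. The median log2 fold change of the 8 tested macrophage markers was -0.82, and all 8 were not called. The fibroblast markers summed to 6538, 7145 and 6762 FPKM with DMSO and to 6092, 5783 and 3640 with TSA, without overlap. Their median log2 fold change was -0.23, with Thy1 called higher and 9 of the 10 tested not called. The part of macrophages or fibroblasts in the Fabp5 value was not tested.

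Fabp3 was at 371, 369 and 366 FPKM with DMSO and at 592, 557 and 1042 with TSA. The groups did not overlap, but the change of 0.92 ± 0.24 did not pass (adjusted p = 0.0862). Cardiomyocyte markers summed to 17260, 18065 and 26958 FPKM with DMSO and to 16694, 14968 and 38656 with TSA, so that replicate 3 was the highest of each group. Much of this was Nppa, at 1161, 1068 and 7396 FPKM with DMSO and 1182, 1111 and 10952 with TSA. The markers did not move together. Myh6, Tnnt2, Tnni3, Ryr2, Pln, Atp2a2 and Mb were lowest in DMSO replicate 3, and the other markers were highest there. The share of Fabp5 in the FABP pool was 23.4%, 27.3% and 20.6% with DMSO and 7.73%, 7.32% and 4.06% with TSA, and the groups did not overlap.

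The remaining rat genes did not pass the test. Angptl4 was at 3.18, 1.19 and 0.368 FPKM with DMSO and 7.25, 10.3 and 1.80 with TSA (log2 fold change 1.46 ± 0.60, adjusted p = 0.237), with groups that overlapped through replicate 3. Plin5 was at 2.49, 1.40 and 0.058 FPKM against 3.16, 2.57 and 2.48 (0.85 ± 0.41, adjusted p = 0.322). Pnpla2 was at 18.2, 16.2 and 13.0 FPKM with DMSO and at 19.0, 19.5 and 18.3 with TSA (0.26 ± 0.14, adjusted p = 0.363). For Angptl4, Plin5 and Pnpla2 the TSA library was above the DMSO library of the same number in all 3 pairs. The same held for Fabp3 and Slc27a1, and the share of all tested genes with this pattern was not taken. Angptl4, Plin5 and Pnpla2 were not called by limma with the replicate number as a block (adjusted p = 0.0703, 0.181 and 0.232). Fabp4, Lpl, Slc27a1 and Plin2 overlapped between the treatments, with log2 fold changes between -0.27 and 0.24. Their levels ran from 58.2 to 214 FPKM for Fabp4, from 65.5 to 165 for Lpl, from 14.7 to 30.0 for Slc27a1 and from 57.2 to 93.7 for Plin2. Within each treatment, replicate 3 was the lowest library for each of these genes and for Fabp5. For Fabp3 it was the lowest with DMSO and the highest with TSA. It stood apart in the whole transcriptome as well, with a correlation to the other replicates of its group of 0.953 to 0.966 against 0.983 between replicates 1 and 2. Without replicate 3 of both groups, limma kept Fabp5 lower (-1.75, adjusted p = 0.0023) and called Angptl4 higher (1.67, adjusted p = 0.0272), giving 2 calls. The share of all tested genes called in that fit was not taken. None of the 35 tested genes of the 4 pathway lists was called in the rat by limma on FPKM, against 2.13% of 13625 genes. Limma-voom on estimated reads called none either, against 341 higher and 51 lower among all 13625. Each had 8 of the 35 at an unadjusted p under 0.05. With the replicate number as a block, limma called 1 of the 35, against 259 higher and 80 lower among all 13625. It had 14 of the 35 at an unadjusted p under 0.05. The share of all genes at such an unadjusted p was not taken, so the counts of 8 and 14 have no background to be read against.

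**Figure D5:**
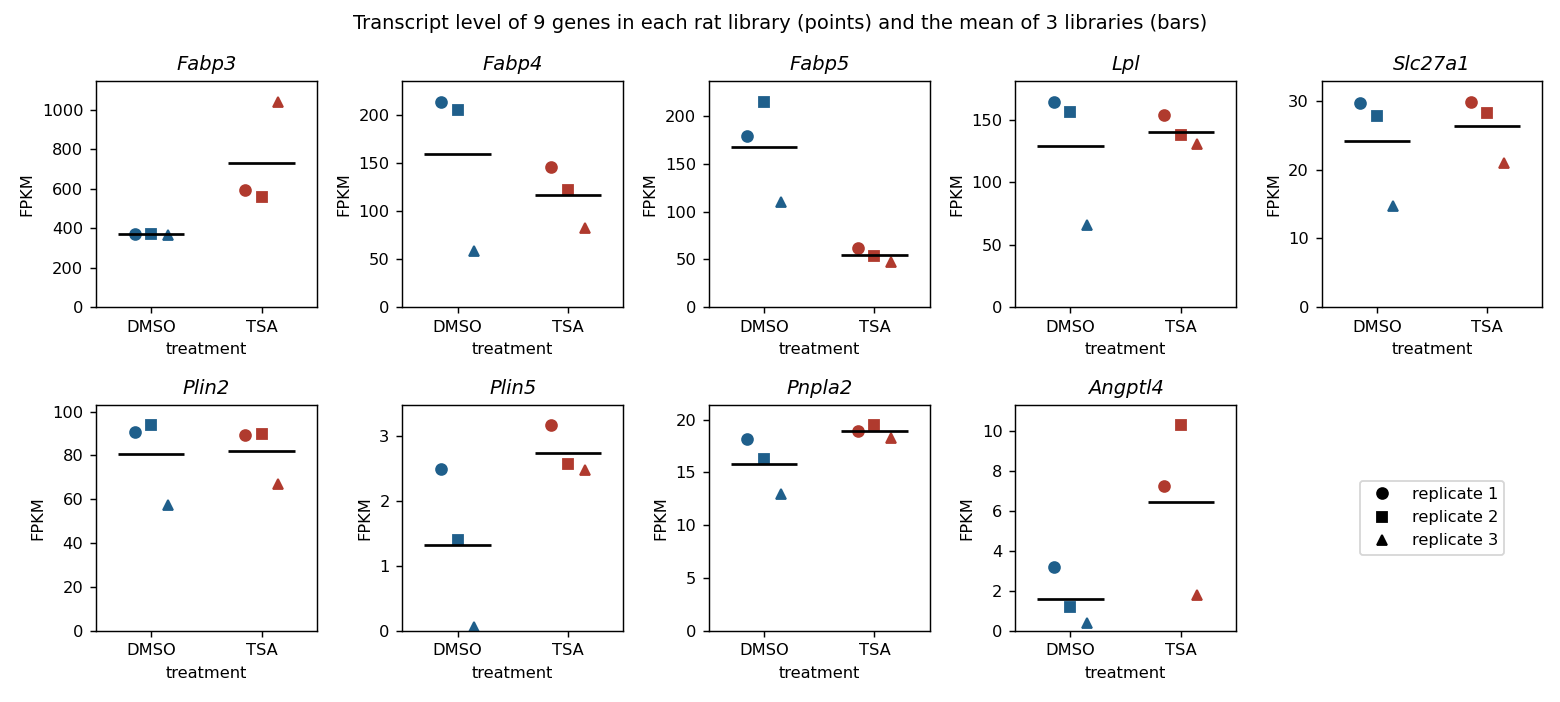
Each panel plots the FPKM of 1 gene on a linear axis from 0 for the 3 DMSO and the 3 TSA libraries, with the shape of the point giving the replicate number and a bar at the mean. Fabp5 is the gene whose groups lie apart with TSA below DMSO, at 47.6 to 61.8 against 110 to 215 FPKM, and triangles (replicate 3) sit lowest in most panels.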

How the data were processed

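Cardiomyocyte RNA-seq (8 mouse and 6 rat libraries) and ATAC-seq (8 mouse libraries) were analysed; 6 HiChIP samples were not analysed here. Per the file headers and the study's methods, reads were aligned with HISAT2 2.1.0 and quantified by the authors against GENCODE vM21 or Ensembl transcripts with StringTie (header versions 1.3.5 for mouse and 1.3.4d for rat); the deposited transcript lines hold coverage, FPKM and TPM. The deposited peak lists were made by the authors with Bowtie2, Picard and MACS2 per library on mm10 and hold for each peak a score, a fold enrichment ratio over background, and −log10 p and q values. FPKM was summed over a gene's transcripts and tested as log2(FPKM + 1) with limma 3.58.1 (R 4.3.3, lmFit and eBayes with trend, two-sided, Benjamini-Hochberg over all tested genes), since FPKM does not suit a count model. A gene was tested if its FPKM reached 1 in 2 or more mouse, or 3 or more rat, libraries. Calls required adjusted p below 0.05 with a change of over 1 log2 unit, the thresholds of the study. The script was tested on simulated data. Alternatives (pseudocount, filters, TPM, median-of-ratios, limma-voom, block, left-out libraries, peak windows and list lengths) are given in the closing section.

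The 8 mouse libraries entered 1 fit. RNA depth was 4.40 to 5.63 Gb of aligned bases in the mouse and 4.23 to 5.77 Gb in the rat, as coverage and length give it, and the depth of the peak lists is unknown. Libraries are labelled as replicates; where nothing says they came from separate animals, p-values measure only the spread between these libraries. Same-numbered rat libraries deviated together (correlations of 0.224, 0.194 and 0.346). Differently numbered rat replicates 1 and 2 correlated across treatments at 0.090 and 0.167, and replicate 3 with either at -0.270 to -0.200. Same-numbered mouse libraries correlated at -0.096 to 0.171, with E18.5 and P1 (0.171) and P3 and P7 (0.116) above 0.1. Every member is named; other genes are named where called from lists, by likeness (3 genes of mean FPKM of at least 5) or as markers. Members and lists were chosen with earlier results of these data known. The pathway gene called in the rat with the block is not reported here. Copies were sought with BLAST 2.17.0 among GENCODE transcripts (at least 90% identity over 200 bases).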

Additional observations from a re-analysis of the deposited data

How the results depend on the processing

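Of 386 recomputed member fold changes, other than those leaving out a library, 369 kept direction and side of the threshold, 8 came to pass it, 4 ceased to and 5 reversed. The reversed ones were near 0: Lpl at P3 against E18.5 (0.00062 as reported, -0.22 with median-of-ratios scaling, -0.012 with limma-voom), Plin2 under TSA (-0.024 in TPM, -0.042 without replicate 3 of both groups) and Lpl under TSA (-0.14 without replicate 3 of both groups, an alternative chosen after seeing the data). That same alternative gave 2 called genes under TSA. The share of all tested genes called was not taken for it, without an expression filter or with a library left out. The counts of called members in those fits therefore have no background to be read against. Without an expression filter the genes called from P1 to P7 were 3 in place of 5, as Lpl and Angptl4 missed the threshold. Leaving out 1 library gave 4 to 5 calls at P1, 4 to 5 at P3, 7 to 9 at P7, 4 to 6 from P1 to P7, and 0 to 1 under TSA. In those fits, reversed changes ranged from -0.26 to 0.82 (Angptl4, P1), -0.28 to 1.27 (Angptl4, P3), -0.11 to 0.86 (Lpl, P1), -0.13 to 0.13 (Lpl, P3), and under TSA from -0.88 to 0.048 (Fabp4), -0.19 to 0.47 (Lpl), -0.14 to 0.35 (Slc27a1) and -0.18 to 0.19 (Plin2). With the replicate block, which pairs libraries by number, the calls were 4, 5, 9, 5 and 1 as without it, and Fabp5 under TSA had an adjusted p of 0.0258; all rat calls went from 247 higher and 43 lower to 259 and 80. Plin5 at P3 lost its call without E18.5 replicate 2 or P3 replicate 1.

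With equal numbers of top peaks, members with a promoter peak were 3 in P1 replicate 1, 1 and 3 at P3 and 3 and 4 at P7, and gained genes were 0, 0 and 1. When only peaks above the median score of each list were kept, the E18.5 libraries had a promoter peak for 1 and 2 members. The shares of all tested genes there were 43.3% and 41%. The P1 libraries held 4 and 2 members, beside 51.4% and 30.4% of all tested genes. For the P3 pair it was 7 (83.1%) and 6 (74.2%), and for the P7 pair 5 (70.5%) and 5 (72.9%). The share of all tested genes was thus also higher in the P3 and P7 libraries than before birth. Leaving out 1 library gave 1 to 3 gained genes at P1, 3 to 5 at P3 and 3 to 5 at P7; these rose without E18.5 replicate 1 (2, 5 and 5), without P1 replicate 2 (3) and without P7 replicate 1 (5). The share of all tested genes with a gained peak was not taken with a library left out or with lists of equal length. Depth limits Plin5, which is near 1 FPKM. The causes were not tested.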
